A study of Homo sapiens with 12 samples.

Results

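The mitochondrial genome supplied 37 gene rows in each of the deposited RNA-seq tables, out of 61453 genes over both tables. They were taken as all rows on chromosome MT, matched between the tables by gene identifier: 13 mRNAs, 2 rRNAs and 22 tRNAs. Start, end, strand and length were identical in both tables for all 37. The RNA came from prostate cancer cells labelled LNCaP and PC3, human lines grown in culture, without genetic modification by their genotype label (WT). Each line was exposed to erastin at 5 µmol/L or to DMSO, the solvent, giving 3 LNCaP erastin, 3 LNCaP DMSO, 3 PC3 erastin and 3 PC3 DMSO libraries. Erastin is a small molecule that inhibits system xc-, the importer of cystine, and induces the iron-dependent cell death called ferroptosis. The sources used here give no exposure time. No label ties the replicates to separate cultures, and the spread behind each p-value may therefore be technical.

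Human mitochondrial DNA is a small circle that is transcribed on both strands into long precursor RNAs. The tRNAs sit between most of the mRNAs and rRNAs like punctuation, and their excision by RNase P and ELAC2 releases the other transcripts. All of its mRNAs encode subunits of the respiratory chain or of ATP synthase, whereas the polymerase, the processing enzymes and the RNA-binding proteins are imported products of nuclear genes.

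The LNCaP libraries held 14047979 to 17668554 recovered reads and the PC3 libraries 13709558 to 16350657. KLK3, which encodes prostate-specific antigen and marks LNCaP cells, had 14.5 to 18.9 FPKM in LNCaP erastin libraries, against 185 to 233 FPKM in LNCaP DMSO libraries, and stayed under 1 FPKM in every PC3 library. Of 6 LNCaP markers tallied, all 6 reached 1 FPKM in every LNCaP library, and in PC3 3 of the 6 stayed under 1 FPKM throughout. HOXB13, also on that list, had 39.0 to 45.5 FPKM in PC3 erastin libraries, against 81.4 to 147 FPKM in PC3 DMSO libraries, and so does not separate the lines. TMPRSS2, on the list as well, had 1.12 to 1.26 FPKM in PC3 erastin libraries, against 4.74 to 6.12 FPKM in PC3 DMSO libraries. All 6 PC3 markers (CAV1 and VIM among them) were above 1 FPKM in at least 1 PC3 library, and 3 of the 6 stayed under 1 FPKM in every LNCaP library. The 3 leukocyte markers stayed under 1 FPKM in every library of both lines. Of 3 stromal markers, 2 did so, whereas COL1A1 had 0.994 to 2.97 FPKM in LNCaP and 1.79 to 4.52 FPKM in PC3. The 3 endothelial markers stayed under 1 FPKM in LNCaP, and in PC3 PECAM1 had 1.03 to 1.09 FPKM in DMSO libraries. In LNCaP, replicate 3 of both groups stood apart in many mitochondrial rows, and in PC3 so did DMSO replicate 1. Calls that changed without these libraries are named or counted with the results.

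The order of genes on the circle bears on how reads can be assigned to them, and the sequences printed here mark such places. The tRNA rows with the most reads were MT-TN, MT-TC and MT-TP, the tRNAs for asparagine, cysteine and proline, which lie on the minus strand at MT:5657-5729, MT:5761-5826 and MT:15956-16023 of hg38. They are printed 5′ to 3′ as RNA-sense DNA letters of GENCODE release 29, with the anticodon in capitals.
MT-TN: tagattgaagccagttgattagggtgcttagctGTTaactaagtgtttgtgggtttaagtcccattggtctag
MT-TC: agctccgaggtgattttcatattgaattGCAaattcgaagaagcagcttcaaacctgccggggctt
MT-TP: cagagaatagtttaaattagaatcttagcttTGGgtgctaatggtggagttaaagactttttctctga

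MT-ATP8 with MT-ATP6, and MT-ND4L with MT-ND4, are reading frames that overlap on a shared RNA, and both junctions are shown from the same source on the plus strand, at MT:8515-8584 and MT:10748-10778. Capitals are the bases that belong to both rows, 46 for MT-ATP8 with MT-ATP6 and 7 for MT-ND4L with MT-ND4, with 12 bases of flank on either side.
MT-ATP8 and MT-ATP6: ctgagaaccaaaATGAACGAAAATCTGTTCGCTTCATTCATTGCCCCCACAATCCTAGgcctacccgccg
MT-ND4L and MT-ND4: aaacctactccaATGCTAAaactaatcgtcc
No source used here says how a read across such a junction was assigned, and the split within each pair is uncertain. The strand setting is likewise unstated: reads of the 9 minus-strand rows (MT-ND6 and 8 tRNAs) and antisense reads at those places cannot be told apart from these tables. MT-ATP8 had 99.3 ± 18.6 FPKM in LNCaP erastin libraries (SD, n = 3), against 5580 ± 393 FPKM for MT-ATP6 in the same libraries. The part of read assignment in that gap between rows of a shared RNA was not tested.

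Mitochondrial rows were among the most abundant of the tables: by mean FPKM (a level per gene length and library depth), they held 16 of the top 20 places in LNCaP and 17 of 20 in PC3. Their share of all recovered reads was 9.71 to 10.5% in LNCaP erastin libraries, against 7.53 to 9.10% in LNCaP DMSO libraries. In PC3 the share was 7.07 to 8.51% in erastin libraries, against 6.23 to 8.78% in DMSO libraries. The LNCaP groups did not overlap and the PC3 groups did. With 3 against 3 libraries the smallest two-sided p of an exact permutation test is 0.1, which LNCaP reached (adjusted p = 0.225 over 18 exact tests) and PC3 did not (p = 0.7). Each exact permutation p of 0.1 given below likewise had an adjusted p of 0.225. In bulk RNA, fewer cells of a kind and less RNA per cell cannot be told apart, and a share of reads also moves with everything else in the library. Counting error of these shares was at most 0.0144 percentage points (the half-width of a 95% Wilson interval, which covers counting error only).

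**Figure D1:**
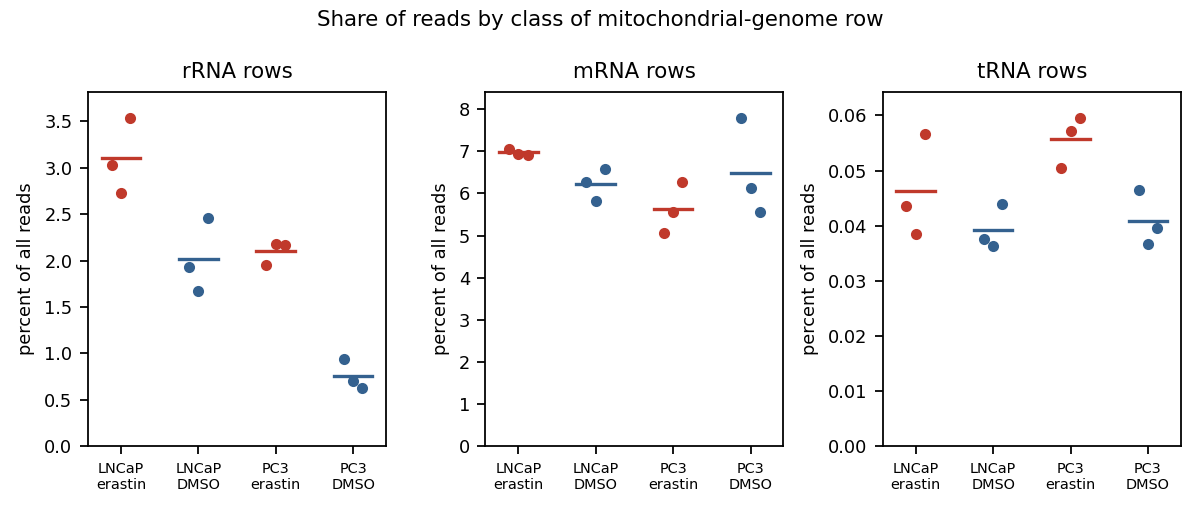
Percent of all recovered reads from mitochondrial rRNA, mRNA and tRNA rows, 1 point per library, erastin left of DMSO within each line, with the group mean as a line. The PC3 erastin libraries lie between 1.95 and 2.18% for rRNA rows, all above the DMSO libraries of that line.

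Among the rRNA, mRNA and tRNA classes, the rRNA rows had the largest ratio of read shares, erastin over DMSO, in both lines. MT-RNR1 (MT:648-1601) and MT-RNR2 (MT:1671-3229) encode the small and large rRNA of the mitochondrial ribosome. In PC3 both rose: their summed share of reads was 1.95, 2.18 and 2.17% in erastin libraries, against 0.944, 0.705 and 0.628% in DMSO libraries, a ratio of means of 2.76. The groups did not overlap (exact permutation test, two-sided p = 0.1, the smallest possible).

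MT-RNR1 had 1834, 2250 and 2007 FPKM in PC3 erastin libraries, against 796, 643 and 705 FPKM in PC3 DMSO libraries. Every erastin library was above every DMSO library, and the log2 fold change (here and below on the log2(FPKM + 1) scale) was 1.50 ± 0.15 (SE; limma, Benjamini-Hochberg adjusted p = 0.0001). MT-RNR2 had 11270, 12362 and 12893 FPKM in PC3 erastin libraries, against 6185, 4431 and 3874 FPKM in PC3 DMSO libraries. Its groups were also apart, with a log2 fold change of 1.36 ± 0.21 (limma, adjusted p = 0.0011). These calls stand beside 34.0% of all 15371 PC3 genes called higher, and 36.7% with groups apart and higher. Both calls held with any single library left out, the largest adjusted p (limma) being 0.0018 for MT-RNR1 and 0.0079 for MT-RNR2.

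In LNCaP the same 2 rows were higher on average but the groups overlapped. MT-RNR1 had 3582, 3158 and 5426 FPKM in LNCaP erastin libraries, against 2275, 2251 and 4085 FPKM in LNCaP DMSO libraries. MT-RNR2 had 15964, 13731 and 19301 FPKM in LNCaP erastin libraries, against 10206, 9261 and 15632 FPKM in LNCaP DMSO libraries. Replicate 3 was the highest library of each group for both rows. The log2 fold changes were 0.52 ± 0.38 and 0.51 ± 0.39, with adjusted p (limma) of 0.34 and 0.37, and of 0.10 and 0.25 with replicate number as a block. As a share of reads, which leaves out the further scaling in the deposited FPKM, the rRNA rows of LNCaP did not overlap: 3.03, 2.73 and 3.54% in erastin libraries, against 1.93, 1.67 and 2.46% in DMSO libraries (exact p = 0.1, the smallest possible).

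The ratio of rRNA reads to mRNA reads of the mitochondrial genome does not depend on library scaling. Its log2 value was -1.53 to -1.35 in PC3 erastin libraries, against -3.15 to -3.04 in PC3 DMSO libraries. In LNCaP it was -1.35 to -0.97 in erastin libraries, against -1.80 to -1.42 in DMSO libraries. The groups were apart in both lines (exact p = 0.1 each, the smallest possible), by 1.68 in PC3 and 0.46 in LNCaP on the log2 scale. The part of library preparation in the rRNA shares and in this ratio was not tested. The test of the difference between the lines did not reach the threshold for either row: LNCaP minus PC3 was -0.99 ± 0.38 for MT-RNR1 (limma interaction over 12 libraries, adjusted p = 0.0529) and -0.85 ± 0.37 for MT-RNR2 (adjusted p = 0.078). With replicate number as a block in each line the adjusted p (limma) fell to 0.0103 and 0.039. That block also covers the PC3 libraries, whose replicate numbers showed no pairing, so these values do not settle the difference.

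In FPKM the mRNA rows moved little and mostly without a call. None of the 13 was called in LNCaP, where 31.5% of all 13683 genes tested were called (13.8% higher, 17.7% lower). In PC3, 2 of 13 fell and none rose, where 66.4% of 15371 genes were called (34.0% higher, 32.4% lower). The median log2 fold change of the 13 was 0.06 in LNCaP, against -0.02 over all genes, and -0.38 in PC3, against 0.00 over all genes. In PC3 11 of the 13 were below 0 with the FPKM as deposited, and 10 when rescaled to the reads outside the mitochondrial genome. In LNCaP the sign of the median turned to -0.06 with quantile normalization. Without PC3 DMSO replicate 1, which was the highest PC3 DMSO library for 12 of the 13 mRNAs, the PC3 median was -0.20. As a summed share of reads, the mRNA rows of LNCaP did not overlap. They held 6.92 to 7.06% in LNCaP erastin libraries, against 5.82 to 6.59% in LNCaP DMSO libraries (exact permutation p = 0.1, the smallest possible). In PC3 they held 5.07 to 6.28% in erastin libraries, against 5.56 to 7.79% in DMSO libraries, which overlapped (exact permutation p = 0.4).

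**Figure D2:**
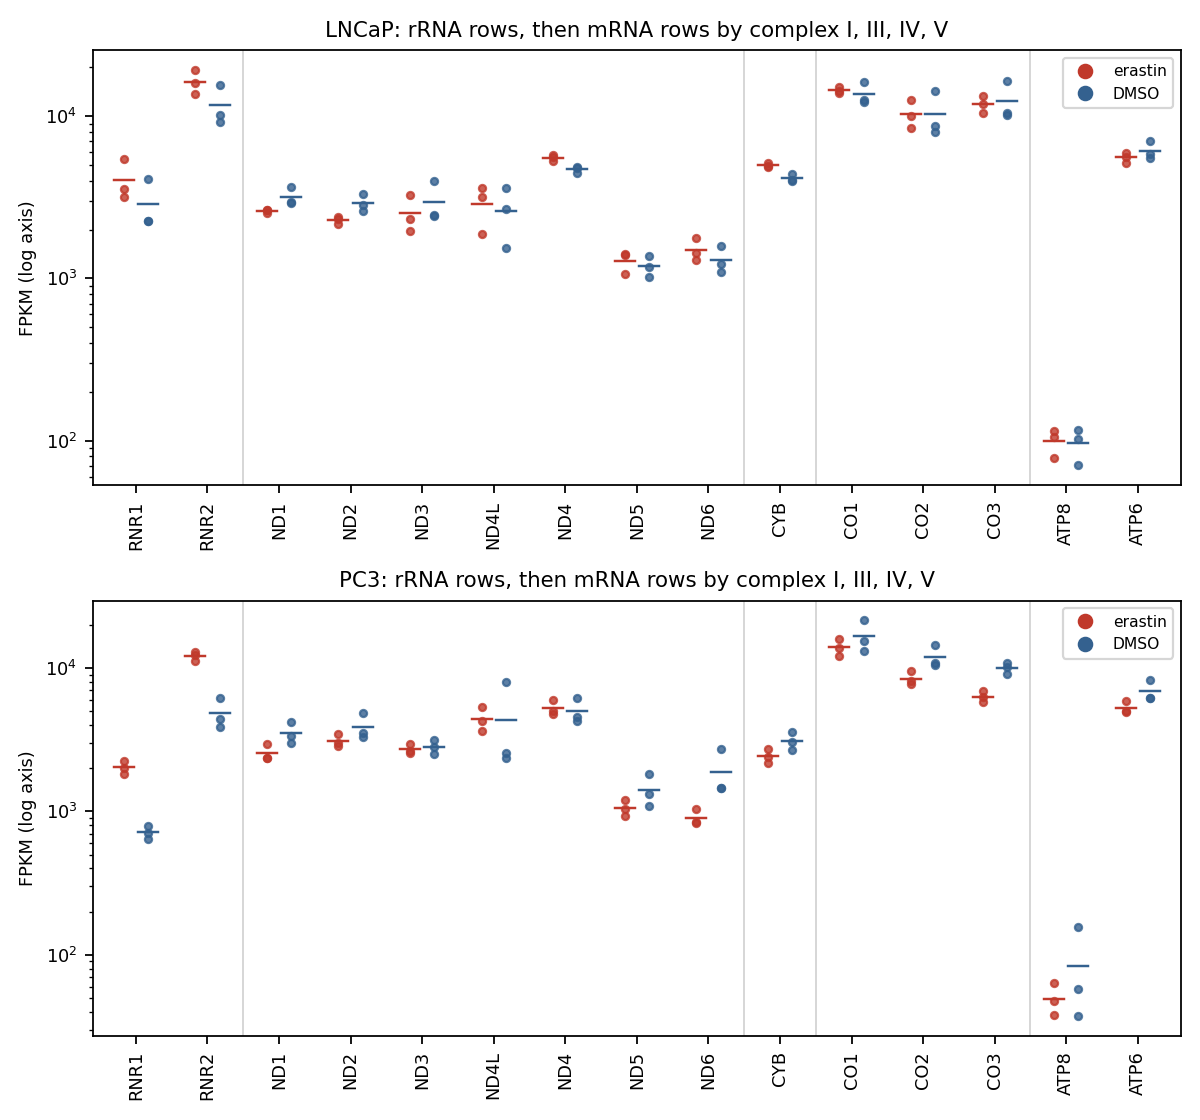
FPKM on a log axis for the 2 rRNA rows and the 13 mRNA rows (names without their MT- prefix) in LNCaP above and PC3 below, 1 point per library with the group mean as a line, erastin left of DMSO. The rRNA points of PC3 separate by group, whereas most mRNA points of both lines overlap.

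The 7 mRNAs of complex I encode subunits of NADH dehydrogenase, the entry point of electrons from NADH. MT-ND6 (MT:14149-14673), the only mRNA on the minus strand, fell in PC3. It had 831, 848 and 1041 FPKM in PC3 erastin libraries, against 2740, 1447 and 1455 FPKM in PC3 DMSO libraries. The groups were apart and DMSO replicate 1 was the highest by a wide margin. The log2 fold change was -0.99 ± 0.27 (limma, adjusted p = 0.0154), and leaving out single libraries raised the adjusted p to as much as 0.0567. As a share of mitochondrial mRNA reads MT-ND6 made up 0.867, 0.815 and 0.856% in PC3 erastin libraries, against 1.68, 1.16 and 1.28% in PC3 DMSO libraries, again with no overlap.

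In LNCaP MT-ND6 had 1440, 1303 and 1773 FPKM in erastin libraries, against 1226, 1097 and 1587 FPKM in DMSO libraries. These groups overlapped, with a log2 fold change of 0.21 ± 0.26 (limma, adjusted p = 0.57). As a share of mitochondrial mRNA reads, MT-ND6 was higher in every LNCaP erastin library than in every LNCaP DMSO library. The effect of erastin on MT-ND6 differed between the lines by 1.20 ± 0.37, LNCaP minus PC3 (limma interaction, adjusted p = 0.0202), where 44.4% of the 11823 genes tested for that difference were called. Leaving out single libraries moved that adjusted p to at most 0.053.

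MT-ND1 and MT-ND2, the first mRNAs of the map after the rRNAs, were below all DMSO libraries in LNCaP. MT-ND1 had 2623, 2527 and 2657 FPKM in LNCaP erastin libraries, against 2927, 2963 and 3646 FPKM in LNCaP DMSO libraries. MT-ND2 had 2318, 2153 and 2407 FPKM in LNCaP erastin libraries, against 2837, 2605 and 3296 FPKM in LNCaP DMSO libraries. The moderated test called neither (log2 fold changes -0.28 ± 0.25 and -0.34 ± 0.25; limma, adjusted p of 0.44 and 0.34). Limma's trend sets the prior spread of a row from genes of like abundance. The standard error from MT-ND2's own 6 libraries was 0.11, and without the variance trend its adjusted p (limma) was 0.088.

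Within the mitochondrial mRNA pool of LNCaP the same rows separated more clearly. MT-ND1 made up 3.81, 3.89 and 3.68% of mitochondrial mRNA reads in erastin libraries, against 4.76, 4.91 and 4.61% in DMSO libraries. MT-ND2 made up 3.67, 3.61 and 3.63% in erastin libraries, against 5.03, 4.71 and 4.54% in DMSO libraries. Replicate 3 lay with the others here, unlike in FPKM, and neither row's groups overlapped. In PC3 MT-ND1 had 2370, 2362 and 2960 FPKM in erastin libraries, against 4195, 3347 and 2986 FPKM in DMSO libraries, apart by a narrow gap (log2 fold change -0.45 ± 0.18; limma, adjusted p = 0.0651).

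MT-ND4 was above all DMSO libraries in LNCaP, at 5780, 5623 and 5267 FPKM in erastin libraries, against 4812, 4497 and 4896 FPKM in DMSO libraries. Its log2 fold change was 0.23 ± 0.27 (limma, adjusted p = 0.56), with a standard error of 0.05 from its own libraries. In PC3 its share of the mitochondrial mRNA reads was 13.2, 12.6 and 12.9% in erastin libraries, against 9.88, 9.61 and 9.93% in DMSO libraries. Those shares were apart while its PC3 FPKM overlapped (log2 fold change 0.09 ± 0.19, adjusted p = 0.71 with limma).

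MT-ND4L, whose frame runs into MT-ND4 across the 7 shared bases printed above, varied widely among replicates. In LNCaP it had 3193, 3602 and 1876 FPKM in erastin libraries, against 3604, 2678 and 1539 FPKM in DMSO libraries. In PC3 it had 3653, 4245 and 5366 FPKM in erastin libraries, against 8017, 2549 and 2361 FPKM in DMSO libraries. Replicate 3 was lowest in both LNCaP groups and DMSO replicate 1 was highest in PC3, and neither line gave a call with all libraries. Without PC3 DMSO replicate 1 MT-ND4L was called higher in PC3 (log2 fold change 0.83; limma, adjusted p = 0.0054, and 0.0054 to 0.99 over the fits that left out single libraries). MT-ND3 and MT-ND5, the remaining complex I rows, overlapped in both lines, with log2 fold changes of -0.23 and 0.11 in LNCaP and -0.05 and -0.40 in PC3.

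Complex III has a single mitochondrially encoded subunit, cytochrome b, from MT-CYB. It had 5127, 4968 and 4840 FPKM in LNCaP erastin libraries, against 3989, 4059 and 4404 FPKM in LNCaP DMSO libraries. All LNCaP erastin libraries were higher, yet the moderated test gave 0.26 ± 0.27 (limma, adjusted p = 0.49). As a share of reads it was 0.605 ± 0.0445% in LNCaP erastin libraries and 0.463 ± 0.0240% in LNCaP DMSO libraries (SD, n = 3 each; exact permutation p = 0.1, the smallest possible). In PC3 MT-CYB had 2178, 2400 and 2743 FPKM in erastin libraries, against 3590, 3027 and 2695 FPKM in DMSO libraries, which overlapped. The difference between the lines was 0.61 ± 0.26 (limma interaction, adjusted p = 0.074).

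The 3 complex IV rows, MT-CO1, MT-CO2 and MT-CO3, encode the catalytic core of cytochrome c oxidase, and they had the highest FPKM of the mRNAs in both lines. MT-CO3 (MT:9207-9990) fell in PC3. It had 5758, 6245 and 6878 FPKM in PC3 erastin libraries, against 9098, 10887 and 10128 FPKM in PC3 DMSO libraries. The groups were well apart, with a log2 fold change of -0.67 ± 0.15 (limma, adjusted p = 0.0070), and the call held with any single library left out (largest adjusted p 0.0332). Its share of mitochondrial mRNA reads overlapped, at 8.97, 8.96 and 8.45% in PC3 erastin libraries, against 8.31, 13.0 and 13.3% in PC3 DMSO libraries, DMSO replicate 1 being the low one. Of the 13 mRNA shares, 9 overlapped in PC3 and 8 in LNCaP. It was the only PC3 mRNA in which DMSO replicate 1 was not the highest DMSO library.

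MT-CO2 had 7703, 8132 and 9536 FPKM in PC3 erastin libraries, against 14516, 10891 and 10568 FPKM in PC3 DMSO libraries. It was apart but just missed the threshold (log2 fold change -0.49 ± 0.19; limma, adjusted p = 0.0516, and 0.0331 without the variance trend). MT-CO1 had 12108, 13787 and 16021 FPKM in PC3 erastin libraries, against 21541, 15448 and 13228 FPKM in PC3 DMSO libraries, and its groups overlapped (log2 fold change -0.24 ± 0.23). So the rows of 1 complex differed among themselves in PC3, MT-CO3 being called and MT-CO1 not, but that difference between rows was not itself tested.

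In LNCaP all 3 complex IV rows overlapped in FPKM, with log2 fold changes between -0.03 and 0.09. As a share of mitochondrial mRNA reads, MT-CO1 was higher in every LNCaP erastin library, while MT-CO2 and MT-CO3 overlapped. MT-CO2 had 9989, 8497 and 12658 FPKM in LNCaP erastin libraries, against 8047, 8720 and 14401 FPKM in LNCaP DMSO libraries. Replicate 3 was the highest library of each group, as it was for 8 of the 13 mRNAs, and it was the lowest of each group for MT-ND4L, MT-ND5 and MT-ATP8.

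For complex V, MT-ATP6 and MT-ATP8 encode membrane subunits of ATP synthase. MT-ATP6 had 4908, 5049 and 5862 FPKM in PC3 erastin libraries, against 8312, 6220 and 6156 FPKM in PC3 DMSO libraries. The groups were apart, with a log2 fold change of -0.38 ± 0.18 that was not called (limma, adjusted p = 0.0998). In LNCaP MT-ATP6 had 5585, 5183 and 5970 FPKM in erastin libraries, against 5825, 5524 and 6995 FPKM in DMSO libraries. Those FPKM overlapped, while its share of mitochondrial mRNA reads did not, at 5.77, 5.68 and 5.89% in LNCaP erastin libraries, against 6.74, 6.52 and 6.29% in LNCaP DMSO libraries. MT-ATP8, low throughout, had 37.8, 47.2 and 63.0 FPKM in PC3 erastin libraries, against 155, 37.5 and 57.7 FPKM in PC3 DMSO libraries, with 1 outlying DMSO library.

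**Figure D3:**
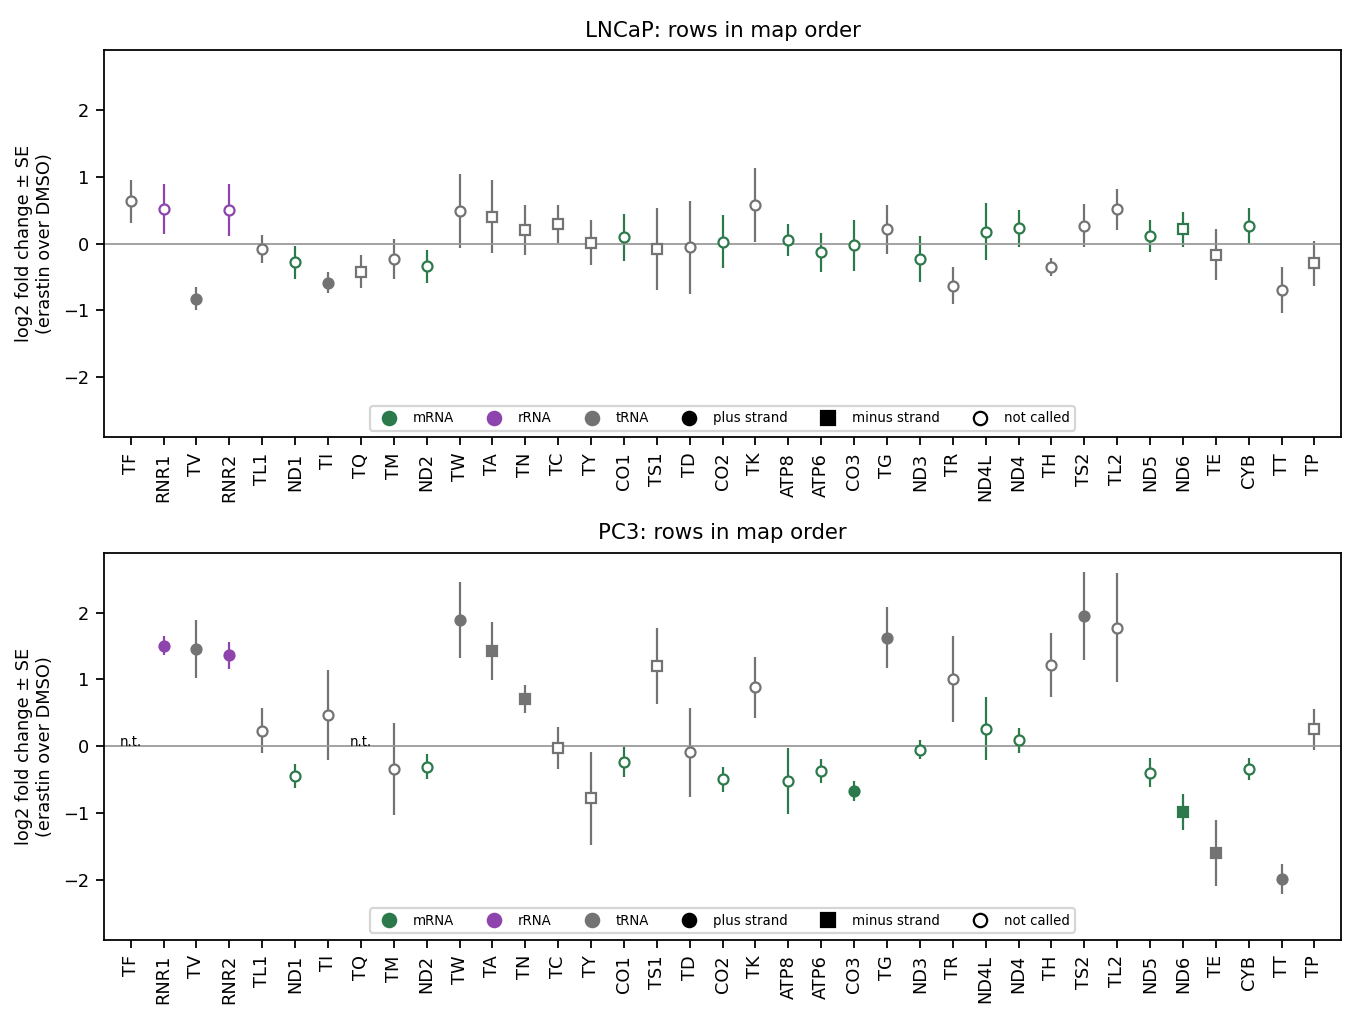
Log2 fold change of erastin over DMSO with its SE for each mitochondrial row in map order, LNCaP above and PC3 below, with filled symbols for adjusted p under 0.05, squares for the minus strand and n.t. for rows not tested. In PC3 MT-TV stands at 1.46 between the rRNAs, and MT-ND6, MT-TE and MT-TT are lower.

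The tRNA rows held few reads. In LNCaP they summed to 6243 to 9996 reads in erastin libraries, against 5290 to 7698 in DMSO libraries. In PC3 they summed to 6926 to 9733 reads in erastin libraries, against 5658 to 7139 in DMSO libraries. As a share of all reads this was 0.0505 to 0.0595% in PC3 erastin libraries, against 0.0367 to 0.0464% in PC3 DMSO libraries. Those shares did not overlap (exact permutation p = 0.1, the smallest possible), whereas the LNCaP shares did (exact permutation p = 0.3). Whether these reads came from mature tRNAs or from precursors was not tested. MT-TN, MT-TC and MT-TP, printed above, held 71.7 to 85.2% of the tRNA reads in LNCaP and 83.8 to 91.1% in PC3. Of the 22 rows, 15 averaged under 100 reads per library in LNCaP and 17 in PC3, and 11 averaged under 10 reads in PC3. MT-TF and MT-TQ were too low to be tested in PC3, at 0 to 3 reads per library.

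**Figure D4:**
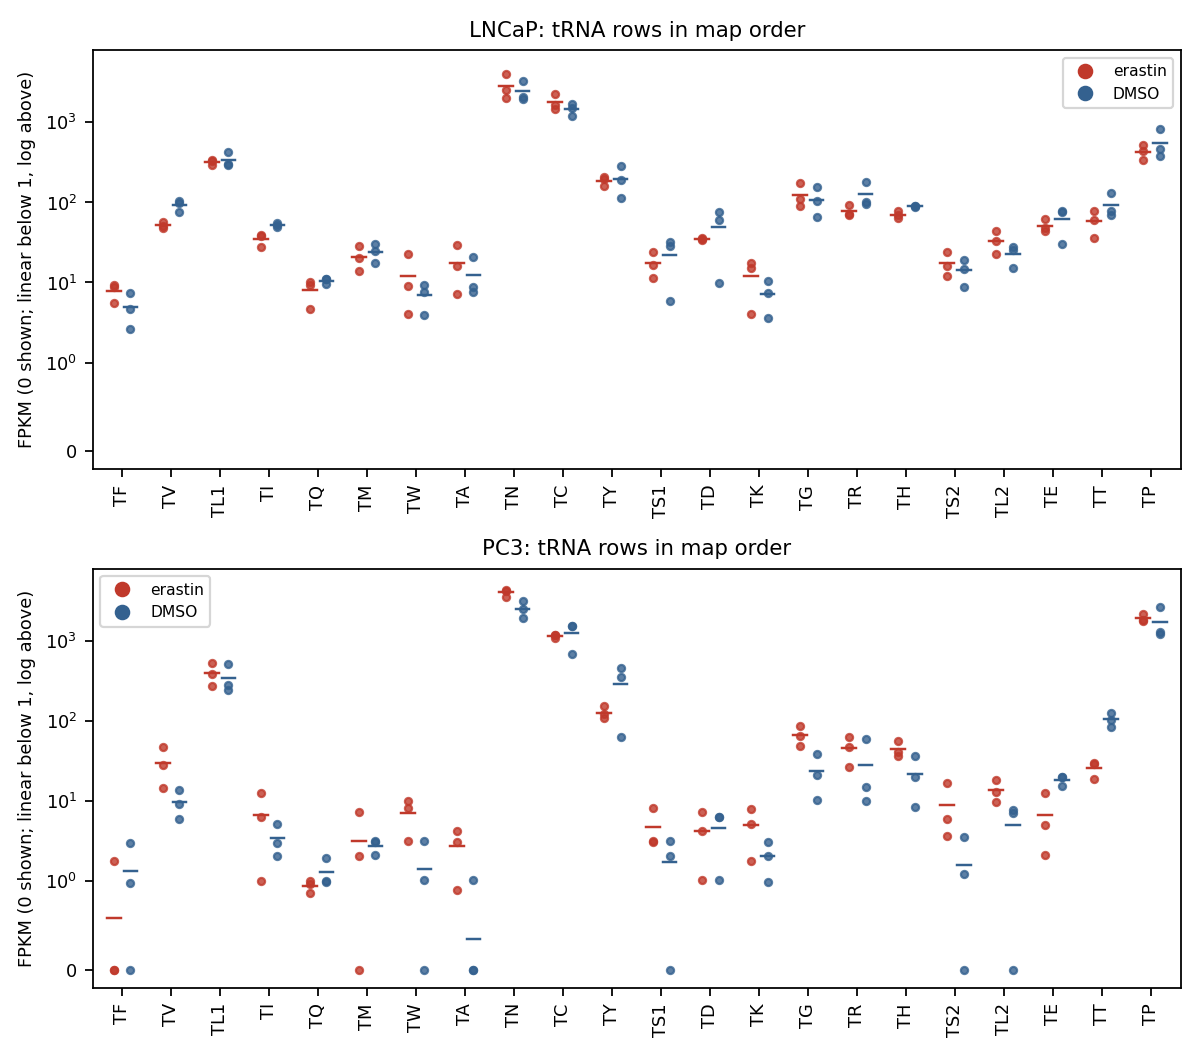
FPKM of the 22 tRNA rows (names without their MT- prefix) in map order in LNCaP above and PC3 below, 1 point per library with the group mean as a line, erastin left of DMSO, on an axis that is linear below 1 and logarithmic above. TN, TC and TP lie far above most other rows, and in PC3 TT is lower in every erastin library than in every DMSO library.

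In LNCaP none of the 22 tRNA rows rose and 2 fell, beside the same 31.5% of all genes called. MT-TV, the valine tRNA at MT:1602-1670 between the rRNA rows, had 57.2, 47.9 and 50.7 FPKM in LNCaP erastin libraries, against 105, 76.5 and 98.7 FPKM in LNCaP DMSO libraries. The groups were apart, on 60 to 71 reads in erastin libraries and 84 to 108 in DMSO libraries, with a log2 fold change of -0.82 ± 0.17 (limma, adjusted p = 0.0116). MT-TI, the isoleucine tRNA, had 38.7, 27.9 and 37.6 FPKM in LNCaP erastin libraries, against 52.3, 49.2 and 55.0 FPKM in LNCaP DMSO libraries. These were apart as well (log2 fold change -0.59 ± 0.16; limma, adjusted p = 0.0326), but the call was lost in all 6 fits that left out a single library (adjusted p 0.0534 to 0.112).

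With replicate number as a block, 5 tRNA rows fell in LNCaP beside 50.4% of all genes called (23.6% higher, 26.7% lower). The 3 added were MT-TT (adjusted p = 0.0097), MT-TR (0.0138) and MT-TH (0.0374), the tRNAs for threonine, arginine and histidine, all by limma. No label says that the numbers are pairs, and these added calls rest on taking them so. Over the mitochondrial rows, deviations of same-numbered LNCaP libraries correlated at 0.157, -0.0487 and 0.200. The count without a block was 0 when LNCaP erastin replicate 2 was left out, and 1 without LNCaP erastin replicate 1, erastin replicate 3 or DMSO replicate 2. Quantile normalization called neither MT-TV nor MT-TI, and called MT-TC and MT-RNR2 higher instead. Without replicate 3 of both groups 4 rows fell, and without LNCaP DMSO replicate 3 alone 1 row rose and 1 fell.

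In PC3 6 of the 20 tested tRNA rows rose and 2 fell, beside 66.4% of all genes called. MT-TT (MT:15888-15953), which follows MT-CYB directly, fell most. It had 18.6, 28.5 and 30.1 FPKM in PC3 erastin libraries, against 127, 85.0 and 101 FPKM in PC3 DMSO libraries. The groups were far apart, on 17 to 32 reads in erastin libraries and 81 to 117 in DMSO libraries, with a log2 fold change of -1.99 ± 0.23 (limma, adjusted p = 0.0003, at most 0.0022 with single libraries left out). Its neighbour MT-TP, on the other strand, had 1797, 1769 and 2158 FPKM in PC3 erastin libraries, against 2611, 1287 and 1210 FPKM in PC3 DMSO libraries, which overlapped.

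MT-TE, the glutamate tRNA next to MT-ND6 on the minus strand, also fell. It had 2.10, 5.06 and 12.6 FPKM in PC3 erastin libraries, against 19.7, 20.1 and 15.4 FPKM in PC3 DMSO libraries. The groups were apart on only 2 to 14 reads in erastin libraries and 15 to 20 in DMSO libraries (log2 fold change -1.60 ± 0.49; limma, adjusted p = 0.0241).

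Among the rows that rose, MT-TN had the most reads. It had 3502, 4225 and 4345 FPKM in PC3 erastin libraries, against 3105, 1907 and 2521 FPKM in PC3 DMSO libraries, with no overlap (log2 fold change 0.70 ± 0.21; limma, adjusted p = 0.0221). MT-TV had 14.7, 46.5 and 27.9 FPKM in PC3 erastin libraries, against 13.5, 6.02 and 9.27 FPKM in PC3 DMSO libraries, barely apart (1.46 ± 0.44; limma, adjusted p = 0.0219). MT-TG, the glycine tRNA between MT-CO3 and MT-ND3, had 49.0, 86.2 and 64.9 FPKM in PC3 erastin libraries, against 39.0, 10.2 and 20.9 FPKM in PC3 DMSO libraries, also apart (1.62 ± 0.45; limma, adjusted p = 0.0169).

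The other 3 rows that rose rested on a handful of reads. MT-TW had 3, 8 and 11 reads in PC3 erastin libraries, against 3, 1 and 0 in PC3 DMSO libraries. MT-TS2 had 3, 5 and 16 reads in PC3 erastin libraries, against 0, 3 and 1 in PC3 DMSO libraries, and the FPKM of both rows were barely apart. MT-TA had 4, 3 and 1 reads in PC3 erastin libraries, against 1, 0 and 0 in PC3 DMSO libraries, and overlapped. A size of change was not detectable at this depth, since a count of 0 allows up to 3 reads in a library. None of the 3 was called in every fit that left out a library.

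The total count for PC3, 8 rows higher and 4 lower of 35 tested, moved with single libraries. Counted by groups that did not overlap, 9 rows were higher and 7 lower in PC3, beside 71.9% of all genes (36.7% higher, 35.2% lower). In LNCaP 2 rows were higher and 6 lower by that count, beside 46.5% of all genes (22.2% higher, 24.3% lower). The limma count was 5 without PC3 erastin replicate 2 and 18 without PC3 DMSO replicate 1, and 4 when genes were not filtered on low values. With the block, which does not pair PC3 libraries, 59.0% of all PC3 genes were called (30.5% higher, 28.5% lower). MT-RNR1, MT-RNR2, MT-CO3 and MT-TT were called in every fit that left out a library, and the other 8 lost their call in at least 1. Without PC3 DMSO replicate 1, MT-TY (-1.67) and MT-TC (-0.41) were called lower, and MT-TR (1.74), MT-TS1 (1.61), MT-ND4L (0.83), MT-TL2 (0.75) and MT-TP (0.61) higher, while MT-TS2 lost its call. Without replicate 1 of both groups, MT-TL1 was also called higher (0.79) and MT-TE lost its call (-1.04).

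The lines differed in 4 of the 35 rows tested for a different effect of erastin, beside 44.4% of all genes (21.4% higher, 23.0% lower). With the block it was 6, beside 46.3% of all genes (22.3% higher, 23.9% lower), though PC3 replicate numbers showed no pairing. The largest difference was in MT-TV, which was lower in LNCaP erastin libraries and higher in PC3 erastin libraries (LNCaP minus PC3 -2.28 ± 0.49; limma interaction, adjusted p = 0.0027). The rRNA rows on either side of it rose in PC3 and were not called in LNCaP. MT-TH differed by -1.56 ± 0.52 (adjusted p = 0.0299 by limma) and MT-TT by 1.29 ± 0.44 (adjusted p = 0.0322 by limma). Of the 12 fits that left out a library, 5 lost the call of MT-TH (adjusted p up to 0.0758) and 7 that of MT-TT (up to 0.0836), the fitted change of MT-TT being below 0 in both lines. MT-TH had 69.3, 64.7 and 77.7 FPKM in LNCaP erastin libraries, against 91.0, 88.4 and 89.2 FPKM in LNCaP DMSO libraries. In PC3 it had 36.7, 40.4 and 56.7 FPKM in erastin libraries, against 8.30, 20.1 and 36.0 FPKM in DMSO libraries. Its FPKM were apart in opposite directions in the 2 lines, in PC3 by a narrow gap. PC3 erastin replicate 1 and DMSO replicate 3 each held 35 reads of MT-TH, which was not called in PC3 without the block (limma, adjusted p = 0.0581).

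Nuclear genes for replication, transcription, processing and modification of mitochondrial RNA were listed as the machinery that acts on this genome, 60 in all. Of 57 tested in LNCaP, 3 rose and 20 fell, beside 13.8% higher and 17.7% lower among all genes, and with the replicate block 8 rose and 32 fell, beside 23.6% higher and 26.7% lower. Of 58 tested in PC3, 11 rose and 24 fell, beside 34.0% higher and 32.4% lower. The median log2 fold change was -0.36 in LNCaP and -0.22 in PC3, against -0.02 and 0.00 over all genes of the same lines.

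The list held 3 genes that protect or polyadenylate mitochondrial mRNAs, 1 of its 8 parts. LRPPRC, which with SLIRP binds and stabilizes these mRNAs, had 8.37 ± 1.02 FPKM in LNCaP erastin libraries and 27.8 ± 2.61 FPKM in LNCaP DMSO libraries (SD, n = 3 each; log2 fold change -1.62; limma, adjusted p = 0.0005). In PC3 LRPPRC had 24.3 ± 1.94 FPKM in erastin libraries and 50.5 ± 15.9 FPKM in DMSO libraries (-0.98; limma, adjusted p = 0.0065). All 3 genes of the group (LRPPRC, SLIRP and MTPAP, the mitochondrial poly(A) polymerase) fell in PC3, beside 32.4% of all genes, and LRPPRC and MTPAP fell in LNCaP, beside 17.7% of all genes. SLIRP in LNCaP was at 13.0 ± 4.07 FPKM in erastin libraries and 26.4 ± 10.2 FPKM in DMSO libraries, with adjusted p (limma) of 0.0579, and 0.0027 with the block. Over the same libraries none of the 13 mRNA rows was called in LNCaP, beside 31.5% of all genes. In PC3 2 were called, beside 66.4% of all genes. A link between these 3 genes and the mRNA rows was not tested.

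Other named falls in LNCaP were MGME1, a nuclease of mitochondrial DNA (-1.48), TWNK, the helicase of the replication fork (-1.25), PNPT1, the exoribonuclease that degrades mitochondrial RNA (-1.12), PRIMPOL, a primase-polymerase (-1.03), and PPRC1, a coactivator related to PGC-1α (-0.97), all log2 fold changes. The 3 rises were POLG, the catalytic subunit of the mitochondrial DNA polymerase (0.68), MTERF2 (0.47) and METTL15, a methyltransferase of the small rRNA (0.44). With single libraries left out, POLG and MTERF2 lost their calls in 5 of 6 fits each and METTL15 in 4 of 6, with limma adjusted p up to 0.122, 0.0905 and 0.0850. TFAM, which packages mitochondrial DNA and starts its transcription, was chosen after its values were seen, as were MTPAP and, for LNCaP, SLIRP. It had 10.2 ± 1.22 FPKM in LNCaP erastin libraries and 20.6 ± 2.57 FPKM in LNCaP DMSO libraries, and fell (log2 fold change -0.94; limma, adjusted p = 0.0035). In PC3 TFAM had 25.6 ± 1.43 FPKM in erastin libraries and 18.4 ± 5.46 FPKM in DMSO libraries, which overlapped (0.49; limma, adjusted p = 0.0652).

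In PC3 the largest rise was in POLG2, the accessory subunit of the polymerase. It had 27.1 ± 1.44 FPKM in erastin libraries and 7.39 ± 1.42 FPKM in DMSO libraries (SD, n = 3 each; log2 fold change 1.75; limma, adjusted p = 8.41e-05). FASTKD5, which takes part in processing precursor ends that no tRNA marks, had 57.0 ± 0.943 FPKM in PC3 erastin libraries and 17.0 ± 0.817 FPKM in PC3 DMSO libraries (1.69). The other named rises were NSUN3, a methyltransferase of the methionine tRNA (1.00), MTERF3 (0.98), GABPA, a transcription factor of respiratory genes (0.82), and PDE12, a phosphodiesterase that trims poly(A) tails (0.82). GABPA reached a limma adjusted p of 0.0685 with a single library left out. The falls were PUS1, a pseudouridine synthase (-1.31), TFB1M, a methyltransferase of the small rRNA (-1.24), TWNK (-1.17), FASTKD1 (-1.13), PNPT1 (-1.07) and SLIRP (-1.06). TWNK and PNPT1 were therefore among the named falls of both lines.

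**Figure D5:**
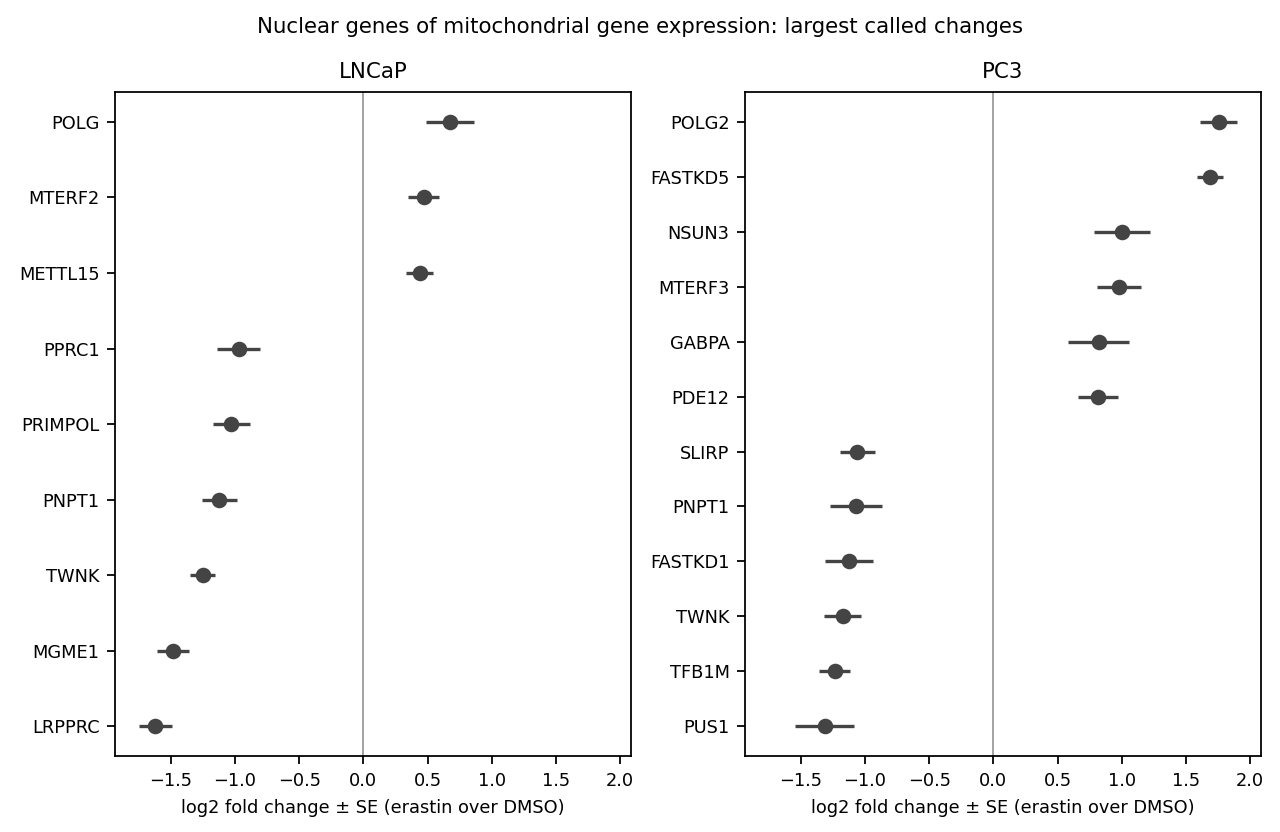
Log2 fold change of erastin over DMSO with its SE for the called nuclear genes of mitochondrial gene expression with the largest changes, up to 6 per direction, LNCaP left and PC3 right. LRPPRC is lowest in LNCaP at -1.62 and POLG2 is highest in PC3 at 1.75.

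Copies of mitochondrial genes in the nuclear genome can draw reads that come from the mitochondrion. The tables held 407 such rows, and their reads came to 0.400 to 0.733% of the reads of the 37 mitochondrial rows. A cluster on chromosome 1 held 94.5 to 98.7% of the reads of these copies. Its most abundant members match their source nearly base for base: MTND2P28 is 98.4% identical to MT-ND2 over 1042 aligned bases, MTATP6P1 98.5% identical to MT-ATP6 and MTCO1P12 98.7% identical to MT-CO1. Reads of these pairs are therefore uncertain. None of the 5 most abundant copies in either line was called by the same limma fit without a block. In LNCaP these were MTATP6P1, MTND2P28, MTCO1P12, MTND4P20 and MTND1P23, of which MTND2P28 (adjusted p = 0.0318) and MTND4P20 (0.0044) were called with the block. In PC3 they were MTND2P28, MTATP6P1, MTCO1P12, MTRNR2L12 and MTND1P23. MTND2P28 had 196, 185 and 146 FPKM in LNCaP erastin libraries, against 281, 233 and 188 FPKM in LNCaP DMSO libraries, lower on average like MT-ND2 itself. Adding the copies to the mitochondrial rows turned no share or ratio round.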

How the data were processed

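TRIzol extraction of total RNA and a TruSeq RNA library kit are given per the labels' protocols. The submitters' processing notes name HISAT2 version 2.0.5 and build hg38. The authors deposited FPKM values with gene lengths, 1 table per line. The counter, its strand setting and its treatment of multiply matching reads are not given in the sources used here.

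Multiplied by gene length, 100% of values were whole reads of a fixed size in each library (tolerance 0.1 reads), and these gave the shares of reads. Depth read from that size was 0.871 to 1.12 times the sum of reads, which shows a further scaling of the FPKM.

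Genes with at least 1 FPKM in 3 of 6 libraries were fitted as log2(FPKM + 1) with limma (version 3.58.1, run under R 4.3.3; variance trend, two-sided, Benjamini-Hochberg over all genes of the fit, threshold 0.05). Levels were not tested between lines. The interaction used all 12 libraries. Shares were compared with exact permutation tests (scipy version 1.17.1). Copies were aligned with Biopython version 1.88, and plots were drawn with matplotlib version 3.10.9. Sequences are from GENCODE release 29.

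All mitochondrial rows are given by value, range or count. Machinery genes are named by up to 6 largest called changes per direction in each line, and nuclear copies by the 5 highest mean FPKM. TFAM, MTPAP, SLIRP in LNCaP and LRPPRC in PC3 lay outside that rule for machinery genes. Of the LNCaP markers, 6 are reported here. The members and lists were chosen with earlier results of these data known.

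Replicate numbers come from the labels. Deviations from group means of same-numbered LNCaP libraries correlated at 0.254, 0.347 and 0.744, although libraries of different numbers reached 0.612. Those of same-numbered PC3 libraries correlated at -0.380, -0.0135 and -0.311. The main fits did not treat the numbers as pairs in either line. Fits with replicate number as a block were run as an alternative. No replicate pair agreed within sampling noise.

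On simulated reads, 93% of 2-fold and 16% of 1.5-fold changes were recovered for LNCaP (13775 genes), and 82% and 9% for PC3 (14788 genes). The simulation changed 200 genes per line, all above a minimum mean FPKM, with the same set spread between libraries for every gene. Its rates therefore do not cover rows with few reads or a wider spread, such as many tRNA rows. In the data far more genes were called (31.5% in LNCaP and 66.4% in PC3). The adjusted threshold was therefore stricter in the simulation than in the data, and its rates do not carry over directly. Alternatives covered pseudocount, filter, scaling, voom, the block and libraries left out. A fit without the variance trend, and fits without LNCaP replicate 3 or PC3 replicate 1 of both groups, were added after seeing the data.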

Additional observations from a re-analysis of the deposited data

Results flagged for a closer look

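The effect of erastin differed between the lines, by limma's interaction with Benjamini-Hochberg adjustment over 11823 genes, in 4 mitochondrial rows, all on the log2(FPKM + 1) scale and as LNCaP minus PC3. For MT-TV the difference was -2.28, with every erastin library below every DMSO library in LNCaP and above in PC3. The nearest PC3 libraries of the 2 groups held 14 and 13 reads of MT-TV. For MT-TH it was -1.56, again with FPKM apart in opposite directions, although PC3 erastin replicate 1 and DMSO replicate 3 each held 35 reads. For MT-ND6 it was 1.20, with overlapping FPKM in LNCaP and a fall in PC3. For MT-TT it was 1.29, with a fall in PC3 and overlapping groups in LNCaP. With single libraries left out, the call was lost in 5 of 12 fits for MT-TH, 7 for MT-TT, 1 for MT-ND6 and 0 for MT-TV. The share of genes called for this difference was 44.4%. The PC3 rows of MT-TV and MT-TH held 6 to 63 reads per library.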

How the results depend on the processing

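Counts of mitochondrial rows called in LNCaP (2) were 1 with no filter, 1 with voom on recovered reads, 5 with the replicate block and 4 without replicate 3 of both groups, an alternative added after seeing the data. They ranged from 0 to 2 with single libraries left out. The 20 LNCaP machinery genes lower and 3 higher became 40 called with the replicate block (50.4% of all genes), and 14 to 23 without single libraries. In PC3 the 12 rows called were 4 with no filter and 5 to 18 without single libraries. Replicate numbers in PC3 showed no pairing, and there the block gave 13 rows and 29 machinery genes. The 4 rows of the interaction were 8 when scaled to reads outside the mitochondrial genome, and 2 to 8 without single libraries. Under that scaling the all-gene median log2 fold change was 0.11 in each line. Among shares of reads, complex V in LNCaP, within its spread, turned to 0.00238 percentage points with reads outside the rRNA rows as the denominator, and ran from -0.0150 to 0.00648 without single libraries. The share of all mitochondrial rows in PC3 ran from -0.0394 to 1.24 and that of complex I in PC3 from -0.247 to 0.144 percentage points, erastin minus DMSO. The cause of these changes was not tested. In LNCaP the block changed the calls of MT-TT, MT-TR and MT-TH and of no other mitochondrial row. Depth limits the tRNA rows under 100 reads per library. Changes of 1.5-fold were rarely recovered in simulation, where the adjusted threshold was stricter than in the data.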

Other observations

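Nuclear copies of mitochondrial genes inside the JAK2 gene differed in PC3, an observation made after the values were seen. JAK2 encodes a cytokine receptor kinase. The 8 copies lie on chromosome 9 between 5091093 and 5110762 (hg38) and overlap no JAK2 exon. The 4 that were aligned (MTCO1P11, MTCO3P11, MTND1P11 and MTCO2P11) are 74.0 to 77.8% identical to their sources. Together the 8 copies held 102, 150 and 198 reads in PC3 erastin libraries, against 0, 2 and 1 reads in PC3 DMSO libraries. The other 4 genes listed inside JAK2 held 46, 70 and 63 reads in PC3 erastin libraries, against 1, 2 and 0 reads in PC3 DMSO libraries. JAK2 itself held 412, 508 and 496 reads in PC3 erastin libraries, against 377, 271 and 157 reads in PC3 DMSO libraries (log2 fold change 0.65; limma, adjusted p = 0.0458). Copies elsewhere outside chromosome 1 held 154, 224 and 184 reads in PC3 erastin libraries, against 126, 101 and 118 reads in PC3 DMSO libraries. In LNCaP the copies inside JAK2 held 9, 14 and 2 reads in erastin libraries, against 20, 13 and 5 reads in DMSO libraries. In PC3 between 30239 and 31311 genes were above 0 in erastin libraries, against 25679 to 26144 in DMSO libraries. The part of unspliced RNA or of DNA in these reads was not tested.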
